A study of Mus musculus and Homo sapiens with 22 samples.

Results

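The data are 2 libraries of 4T1 cells treated with 2.5 µM ENMD-2076, set against the 2 libraries of DMSO-treated 4T1 cells numbered 1 and 2, across all genes. These 4 libraries were chosen by treatment label and by the format of their tables, out of 22 libraries in the series, of which 12 were labelled 4T1. 4T1 is a mammary carcinoma line of the BALB/c mouse, grown here without host cells. All groups were plated for 24 h and then exposed for 24 h, and total RNA was sequenced. The labels do not say that the 2 libraries of a group came from separate cultures, so each p below measures only the spread between libraries, which may be technical. Beside them stand 2 libraries of 4T1 cells with 1.25 µM ENMD-2076, which entered the same fit, and DMSO libraries 3 and 4, which came with another table format and entered only descriptions. Doses are those of the treatment labels. The growth protocol gives 2 µM in place of 2.5 µM, and the column headers of the treated tables read 10 µM and name no compound.

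ENMD-2076 inhibits several kinases, chiefly Aurora A, which matures the centrosome and builds the spindle, and receptors of the VEGF and FGF families. Aurora B, its relative in the chromosomal passenger complex, corrects the attachment of chromosomes to the spindle. Loss of Aurora activity is known to delay or derail mitosis, while loss of receptor signals through RAS and ERK is known to hold cells in G1. The series was set up to find compounds that alter the immune features of tumour cells, and the question of this comparison was which genes differed from DMSO at the higher dose.

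Gene counts summed to 20690909 and 14431870 reads in the 2.5 µM libraries, against 18582921 and 17160531 in DMSO 1 and 2. Levels are given as CPM, read counts relative to library size, after scaling by the trimmed mean of M values (TMM). The treated pair differed from DMSO in content before any gene list is considered. Mitochondrially encoded genes took 8.83 and 8.72% of its reads, against 3.92 and 4.13% in DMSO 1 and 2. The transcript Gm26917, which resembles ribosomal RNA, stood at 2739 and 2429 CPM at 2.5 µM, against 33.0 and 27.2 in DMSO. Gm42418, of the same kind, stood at 6149.8 and 5895 CPM at 2.5 µM, against 359 and 406 in DMSO. The correlation of log2 CPM across genes was 0.993 between the 2.5 µM libraries, 0.899 at most between them and DMSO 1 or 2, and 0.957 to 0.960 between the 1.25 µM libraries and the same DMSO libraries. Genes are not independent replicates, so this is a description.

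Lineage genes, those that mark a cell type, a body position or a tumour clone, were read first to see whether the treated pair held the same cells as DMSO 1 and 2. Of 379 such genes, 209 had at most 3 reads in DMSO 1 and 2 together, and 0 of them reached 10 CPM in both 2.5 µM libraries, whereas 18 did in DMSO 3 and 4. At a lower level some did gain reads: 179 of the 209 stayed at 3 reads or fewer in the 2.5 µM libraries, and of the 179 with no read in DMSO 1 and 2, 145 had none. Of all 8677 protein-coding genes with at most 3 reads in DMSO 1 and 2, 7498 stayed so at 2.5 µM. Over all genes with so few DMSO reads, only 59 reached 5 CPM in both 2.5 µM libraries. A count of 0 among 209 at 10 CPM therefore does not set lineage genes apart. Neurog2 and Flt4 passed 10 CPM in 2.5 µM replicate 2 only (9.03 and 10.2 CPM, and 7.03 and 10.7 CPM). Of the 91 genes at 10 CPM or more in both DMSO libraries, 82 were also so in both 2.5 µM libraries, and 0 were at 3 reads or fewer. Among the 9 that dropped below 10 CPM in at least 1 treated library were Areg, Birc3, Cdkn1a, Col6a1, Esr1, Evpl, Marveld3 and Rb1. Present in both groups were Epcam, the epithelial adhesion molecule (332 and 322 CPM at 2.5 µM, against 315 and 319 in DMSO), the simple-epithelium keratin Krt8 (989.9 and 939.7 CPM at 2.5 µM, against 915 and 923 in DMSO), Gata3, a transcription factor of mammary luminal cells (113 and 120.5 CPM at 2.5 µM, against 81.2 and 85.0 in DMSO), and the intermediate filament Vim (1449 and 1435 CPM at 2.5 µM, against 1969 and 2009 in DMSO).

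Absent from both groups were genes that mark DMSO 3 and 4. Cdkn2a and Cdkn2b, neighbouring inhibitors of cyclin-dependent kinases, had no read in the 2.5 µM libraries and none in DMSO 1 and 2, against 93.3 and 86.5 CPM for Cdkn2a in DMSO 3 and 4. The same held for the Y-linked gene Ddx3y, for Hnf4a, a factor of liver and intestinal cells, for Snai2, a repressor of epithelial genes, and for the imprinted deiodinase gene Dio3. Hox genes mark position along the body axis. Hoxa5 stood at 279 and 255 CPM at 2.5 µM, against 153 and 147 in DMSO. Hoxa10 stood at 43.3 and 38.1 CPM at 2.5 µM, against 34.7 and 38.5 in DMSO. Among the Hoxb genes only Hoxb9 had a read in these 4 libraries. Of blood cell genes, Ptprc, which encodes the pan-leukocyte marker CD45, stood at 0.0606 and 0.0840 CPM at 2.5 µM, against 0.195 and 0.106 in DMSO, and 14 of 30 had no read in these libraries. Lcp1, an actin-bundling protein that carcinoma cells also make, stood at 21.9 and 17.3 CPM at 2.5 µM, against 18.7 and 15.4 in DMSO, and Cd68, a lysosomal protein of macrophages and other cells, at 6.42 and 6.80 CPM at 2.5 µM, against 9.94 and 11.1 in DMSO. In bulk samples, fewer cells of a type and less RNA per cell cannot be told apart.

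**Figure D1:**
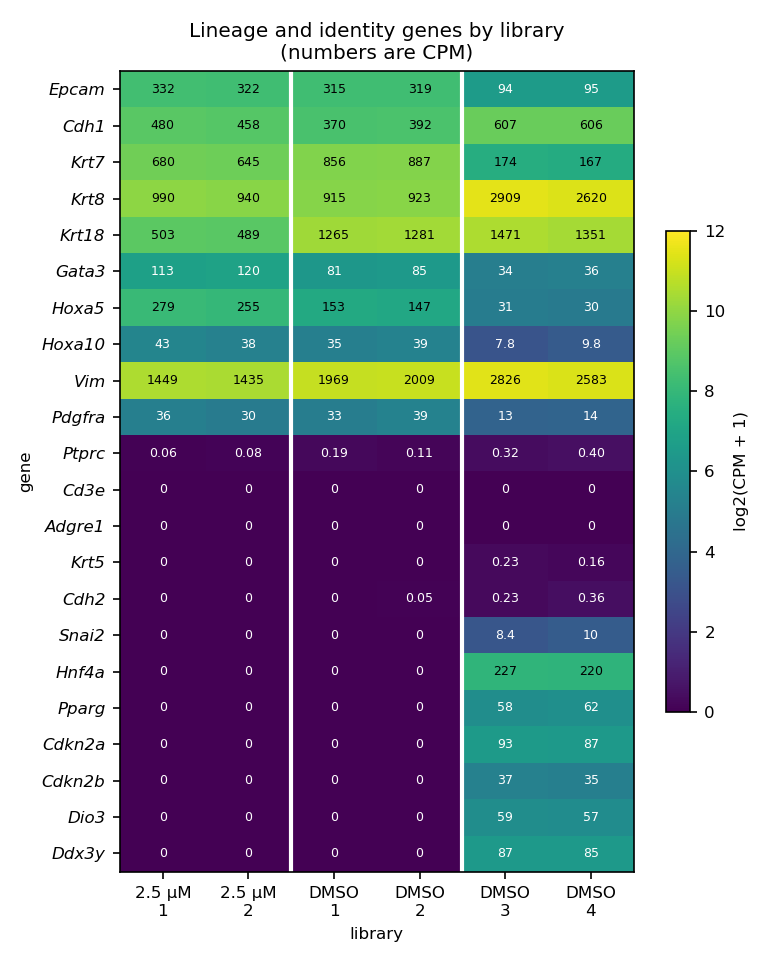
Levels of 22 lineage and identity genes in the 2.5 µM libraries, DMSO 1 and 2, and DMSO 3 and 4, coloured by log2(CPM + 1), with the CPM in each cell. For the genes shown, the first 4 columns share their present and absent genes, while Cdkn2a, Hnf4a and Ddx3y appear in DMSO 3 and 4 only. The genes were chosen by hand from 379. Neurog2, Flt4, Cd79a, Acta1 and Gfap, which gained reads at 2.5 µM, are not shown.

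Lineage genes present in both groups still differed in level. Of 26 tested genes of simple and luminal epithelium, 14 fell and 5 rose (median log2 fold change -0.70), and with total counts 19 fell and 1 rose. Over all 13437 genes tested, 37.4% fell and 37.1% rose, with a median of -0.02. Cldn4, a sealing protein of tight junctions, stood at 52.5 and 52.3 CPM at 2.5 µM, against 342 and 350.0 in DMSO (log2 fold change -2.72, SE 0.07, edgeR adjusted p = 1.07e-33). Its relative Cldn3 fell by 2.64 on the log2 scale (24.2 and 21.8 CPM at 2.5 µM, against 144 and 144 in DMSO). The 2 treated libraries were below both DMSO libraries for each. Cdh1, which encodes E-cadherin, rose (479.5 and 458 CPM at 2.5 µM, against 370.0 and 392 in DMSO, log2 fold change 0.30), and Krt18, the partner of Krt8, fell (503 and 489 CPM at 2.5 µM, against 1265 and 1281 in DMSO, -1.36). Epcam differed by 0.04 (SE 0.06, edgeR adjusted p = 0.529).

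Of 18 tested basal and stratified epithelial genes 9 fell and 3 rose (median -0.37), with total counts 13 and 2. Itgb4, the integrin chain of hemidesmosomes, fell (46.5 and 45.1 CPM at 2.5 µM, against 220.1 and 201 in DMSO, log2 fold change -2.20). Among 16 tested mesenchymal genes 6 fell and 5 rose (median -0.26), with total counts 8 and 3. Fn1, fibronectin, fell by 1.36 on the log2 scale (1723 and 1690.0 CPM at 2.5 µM, against 4406 and 4382 in DMSO). S100a4, a calcium-binding protein of motile cells, rose by 1.51 (1307 and 1273 CPM at 2.5 µM, against 441 and 468 in DMSO). Of 17 tested integrins 8 fell and 3 rose (median -0.75), with total counts 11 and 2. With no filter the integrin median was -0.18 and with all 12 libraries -0.30. Itga1, a collagen receptor chain, fell most of the 17 (1.45 and 2.77 CPM at 2.5 µM, against 43.9 and 46.1 in DMSO, -4.47), while Itgb1, the beta chain it pairs with, rose (1954 and 1731 CPM at 2.5 µM, against 982 and 941 in DMSO, 0.94). Among hormone receptors and milk genes, Esr1, the estrogen receptor, fell (3.57 and 3.44 CPM at 2.5 µM, against 14.1 and 12.6 in DMSO, -1.92), and so did the receptor gene Erbb3 (26.9 and 29.7 CPM at 2.5 µM, against 111 and 100.4 in DMSO, -1.91).

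Across all genes, 4982 rose and 5030 fell of 13437 tested (edgeR quasi-likelihood test, Benjamini-Hochberg adjusted p under 0.05), which is 74.5% called. By more than 2-fold 2741 rose and 2925 fell, and by more than 8-fold 722 rose and 384 fell. At 1.25 µM 2951 genes rose and 3129 fell against the same DMSO libraries, 45.2% called. Directly between the doses, 5303 were higher and 5141 lower at 2.5 µM than at 1.25 µM, 77.7% called. The direction of small changes, and the counts of the gene lists, depend on the scaling. TMM put the median of all genes at -0.02, whereas total counts put it at -0.46 and gave 3425 higher and 6834 lower genes. Without Gm26917, Gm42418 and the mitochondrial genes, 9995 genes were called, against 10012 with them.

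Among named genes with a mean of at least 20 CPM in the higher group, the largest rises were of genes nearly silent in DMSO. Mcmdc2, a relative of the replicative helicase that acts in meiosis, had 25.7 and 24.3 CPM at 2.5 µM, against 0 and 0 in DMSO, at least 330-fold higher with DMSO at a floor of 3 reads over the group. Cmya5, a muscle protein, had 22.1 and 23.2 CPM at 2.5 µM, against 0 and 0 in DMSO, at least 296-fold higher. Taf9b, a subunit of transcription complexes, had 60.6 and 56.6 CPM at 2.5 µM, against 0 and 0.106 in DMSO. Its 2 reads in DMSO give a ratio of 1160 (95% exact counting interval 321 to 9580). Il17f, a cytokine of T cells, had 54.4 and 51.0 CPM at 2.5 µM, against 0.0487 and 0.0531 in DMSO (ratio 1040, interval 288 to 8620), and Ampd1, the AMP deaminase of muscle, had 42.0 and 38.5 CPM at 2.5 µM, against 0.0974 and 0 in DMSO (797, 220 to 6590). Rasl11a, a RAS-like regulator of ribosomal RNA synthesis, had 33.0 and 29.4 CPM at 2.5 µM, against 0 and 0.0531 in DMSO (1240, 222 to 49036). These intervals cover counting error only.

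For each of these 6 genes both treated libraries stood far above both DMSO libraries, and the 1.25 µM libraries stayed at or below 0.32 CPM. Colec11, a soluble lectin of innate immunity, had 67.2 and 68.5 CPM at 2.5 µM, against 0 and 0.212 in DMSO (log2 fold change 9.29). The other largest rises were those of Rnf225, AA986860, Klhl35, Ly6g5b and Wfikkn1, from 7.09 for Rnf225 to 6.49 for Wfikkn1.

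Falls were ranked under the same limit of 20 CPM in the higher group. Among the largest falls, Tcp11l2, a TCP11 family member, stood at 0.242 and 0.168 CPM at 2.5 µM, against 31.2 and 33.0 in DMSO (log2 fold change -7.20, SE 0.29, edgeR adjusted p = 7.02e-27). Eya2, a phosphatase and transcription cofactor, stood at 1.88 and 1.93 CPM at 2.5 µM, against 92.5 and 101 in DMSO (-5.66). Chac1, an enzyme that degrades glutathione, stood at 1.15 and 1.26 CPM at 2.5 µM, against 54.7 and 52.7 in DMSO (-5.48). Trib3 and Trib2, pseudokinases, followed (-5.14 and -5.45), with Slc7a11, the cystine transporter (-4.52), the cytokine Il34 (-4.65), the exporter Abcc3 (-4.63), Itga1 and the ubiquitin ligase Neurl3 (-4.47). Cldn9, a claudin, stood at 1.21 and 1.26 CPM at 2.5 µM, against 42.8 and 38.1 in DMSO (-5.03) and Tmie, a channel partner in hair cells of the ear, at 1.45 and 2.10 CPM at 2.5 µM, against 43.0 and 46.0 in DMSO (-4.68). In none of the 12 did a treated library reach the lower DMSO library.

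**Figure D2:**
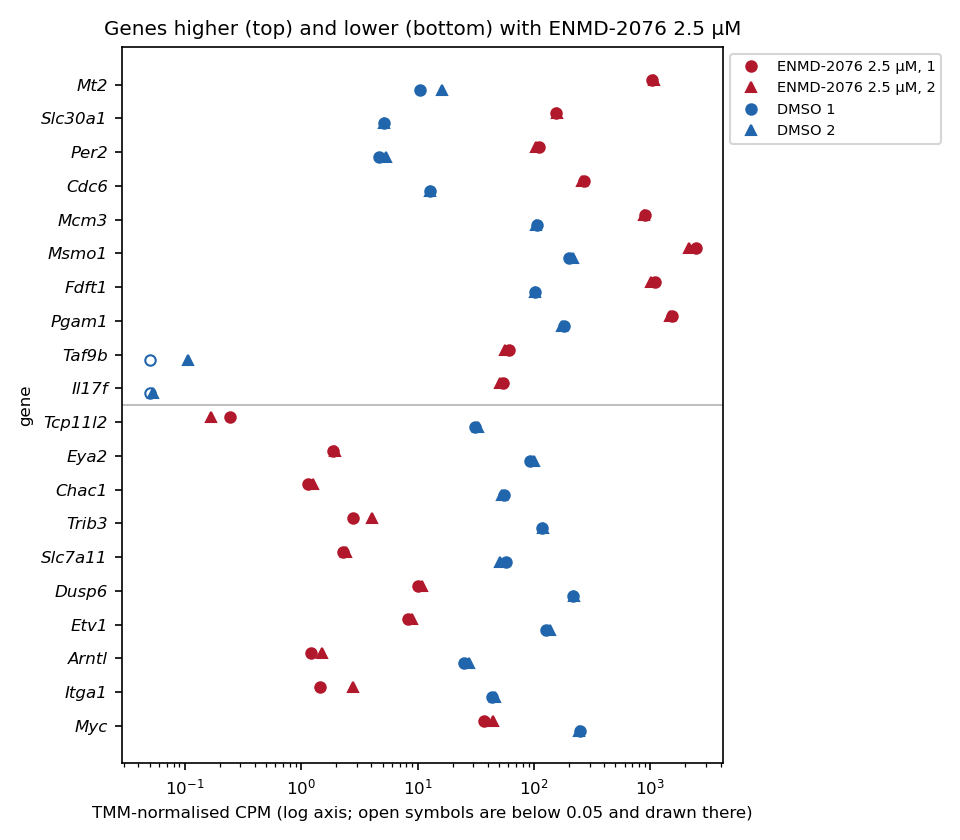
TMM-normalised CPM on a log axis for 10 genes that rose and 10 that fell, with the 2.5 µM libraries in red and DMSO 1 and 2 in blue. Each group's circles and triangles lie close together and the groups do not overlap for any gene shown.

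E2F factors switch on the genes of G1 exit and DNA synthesis, among them Cdc6 and Cdt1, which load the MCM helicase onto origins, and a later wave of genes drives mitosis. Of 30 genes listed for G1/S and E2F, called G1/S genes below, 23 rose and 4 fell at 2.5 µM (median log2 fold change 0.91). Of 26 genes of the helicase and its origins 17 rose and 4 fell (median 1.13). Of 36 mitotic genes 6 rose and 19 fell (median -0.43). With total counts 20 G1/S genes rose and 7 fell (median 0.47), 15 helicase and origin genes rose and 9 fell (0.69), and 3 mitotic genes rose and 31 fell (-0.87).

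Cdc6 stood at 269 and 257 CPM at 2.5 µM, against 12.8 and 12.8 in DMSO (log2 fold change 4.36, SE 0.10, edgeR adjusted p = 3.28e-37). Both treated libraries were far above both DMSO libraries. Mcm3, Mcm4 and Mcm5, subunits of the helicase, rose by 3.08, 2.995 and 2.53 on the log2 scale, and Mcm3 stood at 898 and 886 CPM at 2.5 µM, against 106 and 105 in DMSO. Mcm7, a subunit of the same ring, stood at 152 and 166 CPM at 2.5 µM, against 144 and 149 in DMSO (0.12, edgeR adjusted p = 0.145). E2f7, a repressor that E2F itself induces, rose (132 and 143 CPM at 2.5 µM, against 19.2 and 20.4 in DMSO, 2.79), as did Cdt1 (601 and 596 CPM at 2.5 µM, against 115 and 107 in DMSO, 2.43), and Ccnd1, cyclin D1, rose less (1278 and 1209.5 CPM at 2.5 µM, against 722 and 725 in DMSO, 0.78). Rb1, the E2F restrainer, fell (4.60 and 5.12 CPM at 2.5 µM, against 17.4 and 18.95 in DMSO, -1.91), and so did Orc5, a subunit of the origin recognition complex (8.85 and 15.6 CPM at 2.5 µM, against 22.3 and 21.8 in DMSO, -0.88).

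Promoters of 3 of these genes are shown because they hold the E2F letters searched for, in capitals. The letters were TTTCCCGC, or TTTCGCGC, or TTTGCCGC, or TTTGGCGC on either strand, in 250 bases before and 50 after the start, and matches may overlap. Sequences are from RefSeq, build GRCm38.p6, and read 5′ to 3′ on the gene's strand. They lie at chr11:98907901-98908200 on the plus strand for Cdc6, chr1:20820263-20820562 on the minus strand for Mcm3 and chr1:128359656-128359955 on the minus strand for Mcm6, whose level was 308 and 293 CPM at 2.5 µM, against 112 and 105 in DMSO (1.47).
Cdc6: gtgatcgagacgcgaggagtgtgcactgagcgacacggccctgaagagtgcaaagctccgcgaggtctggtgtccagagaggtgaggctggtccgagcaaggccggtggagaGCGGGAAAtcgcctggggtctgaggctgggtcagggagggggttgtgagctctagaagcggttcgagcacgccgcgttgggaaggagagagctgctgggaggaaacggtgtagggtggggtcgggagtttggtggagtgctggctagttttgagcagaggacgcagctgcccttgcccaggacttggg
Mcm3: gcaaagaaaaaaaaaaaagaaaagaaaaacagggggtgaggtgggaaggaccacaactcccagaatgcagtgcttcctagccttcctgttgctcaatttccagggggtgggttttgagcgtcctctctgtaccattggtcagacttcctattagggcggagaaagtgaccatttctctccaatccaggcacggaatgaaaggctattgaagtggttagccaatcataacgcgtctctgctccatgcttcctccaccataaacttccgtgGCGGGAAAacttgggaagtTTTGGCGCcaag
Mcm6: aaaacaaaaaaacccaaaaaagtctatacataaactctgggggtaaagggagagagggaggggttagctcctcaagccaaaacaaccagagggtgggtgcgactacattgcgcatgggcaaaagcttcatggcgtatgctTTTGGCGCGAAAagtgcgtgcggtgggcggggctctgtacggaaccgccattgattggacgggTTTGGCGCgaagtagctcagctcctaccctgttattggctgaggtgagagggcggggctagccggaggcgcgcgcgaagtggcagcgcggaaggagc
Cdc6 held 1 match, Mcm3 held 2 and Mcm6 held 3. Of all 32851 listed promoters, 2.26% held such a match and 0.0974% held at least 2. Promoters were found for 24 of the 30 G1/S genes, 19 of the 26 helicase and origin genes and 27 of the 36 mitotic genes. A match stood in 35.7% of the 28 G1/S promoters, in 33.3% of the 24 helicase and origin promoters and in 3.45% of the 29 mitotic promoters. The G1/S list was set up to cover E2F genes as well, so its share may follow from that choice. A match is a description of letters, not of binding.

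The mitotic genes included the targets of the compound. Aurka, which encodes Aurora A, stood at 74.8 and 69.7 CPM at 2.5 µM, against 75.2 and 59.9 in DMSO (log2 fold change 0.10, SE 0.11, edgeR adjusted p = 0.409). With total counts it fell (-0.35, edgeR adjusted p = 0.00485). Both treated libraries lay within the range of the DMSO pair. Aurkb, which encodes Aurora B, stood at 34.1 and 35.3 CPM at 2.5 µM, against 52.2 and 46.6 in DMSO and fell (-0.51, edgeR adjusted p = 0.000447). Neither checks the labels, since the compound acts on the protein. Cdk1, the mitotic kinase, rose (269 and 248 CPM at 2.5 µM, against 124 and 127 in DMSO, 1.05), as did Foxm1, a transcription factor of mitotic genes (159 and 153 CPM at 2.5 µM, against 93.3 and 90.5 in DMSO, 0.76), and Wee1, the kinase that restrains Cdk1 (46.8 and 39.1 CPM at 2.5 µM, against 22.99 and 20.6 in DMSO, 0.98). Cdc25b, a phosphatase that activates Cdk1, fell most (16.7 and 17.5 CPM at 2.5 µM, against 87.9 and 87.4 in DMSO, -2.36), next to the kinetochore motor Cenpe (53.4 and 52.5 CPM at 2.5 µM, against 269.8 and 245 in DMSO, -2.28) and Cdc20, which switches on the anaphase-promoting complex (31.3 and 29.7 CPM at 2.5 µM, against 116 and 117 in DMSO, -1.94).

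Of these lists, 24 of the 30 G1/S genes, 23 of the 26 helicase genes and 36 of the 36 mitotic genes fell at 1.25 µM, where 23.3% of all tested genes fell. Between the doses, 27 G1/S, 23 helicase and 36 mitotic genes were higher at 2.5 µM, where 39.5% of all tested genes were. Cdc6 stood at 269 and 257 CPM at 2.5 µM, against 1.67 and 1.48 CPM at 1.25 µM (log2 difference 7.41, edgeR adjusted p = 6.9e-42). For Ccnd1 the levels were 1278 and 1210 CPM at 2.5 µM, against 75.4 and 78.5 CPM at 1.25 µM (4.01). Aurka stood at 74.8 and 69.7 CPM at 2.5 µM, against 7.93 and 7.72 CPM at 1.25 µM (3.21).

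**Figure D3:**
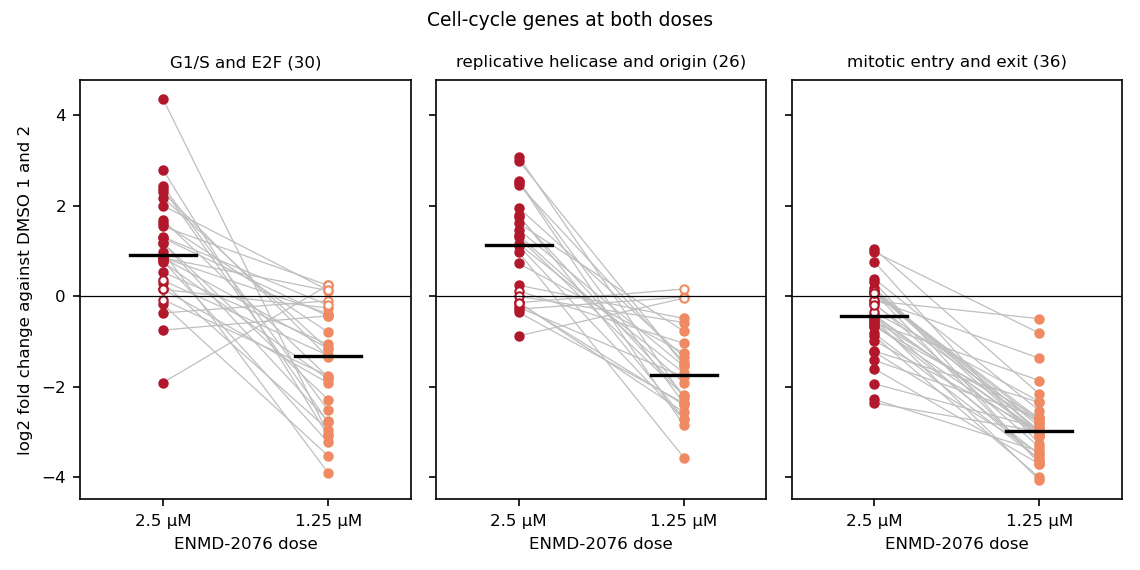
Log2 fold change against DMSO 1 and 2 of each tested G1/S, helicase and origin, and mitotic gene at 2.5 and 1.25 µM, with filled points past an adjusted p of 0.05, black bars at the medians and lines joining the same gene. At 2.5 µM the medians were 0.91, 1.13 and -0.43, and at 1.25 µM they were -1.33, -1.74 and -2.99.

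Checkpoint and repair genes were split. Of 22 tested genes of the DNA damage checkpoint 11 rose and 9 fell (median 0.33, but -0.11 with total counts). The helicase Blm rose (82.2 and 80.6 CPM at 2.5 µM, against 29.96 and 26.5 in DMSO, log2 fold change 1.53), as did the checkpoint kinase Chek1 (70.9 and 59.1 CPM at 2.5 µM, against 24.4 and 21.1 in DMSO, 1.52), while Mdc1, a scaffold at breaks (23.4 and 24.4 CPM at 2.5 µM, against 70.7 and 67.8 in DMSO, -1.54), and the histone variant H2afx (14.8 and 11.6 CPM at 2.5 µM, against 40.1 and 35.8 in DMSO, -1.51) fell. Of 22 tested p53 targets 7 rose and 12 fell (median -0.33), with total counts 5 and 15. Cdkn1a, the p21 inhibitor of cyclin-dependent kinases, stood at 3.88 and 5.04 CPM at 2.5 µM, against 20.3 and 16.9 in DMSO (-2.08), and Gadd45a, a growth arrest protein, at 2.85 and 5.04 CPM at 2.5 µM, against 41.6 and 44.8 in DMSO (-3.50). Aen, a nuclease, rose (39.7 and 41.2 CPM at 2.5 µM, against 15.5 and 14.1 in DMSO, 1.45), as did Zmat3, an RNA-binding protein (68.3 and 61.2 CPM at 2.5 µM, against 22.2 and 26.0 in DMSO, 1.43). Trp53 itself stood at 42.2 and 50.2 CPM at 2.5 µM, against 49.1 and 48.8 in DMSO (-0.09, edgeR adjusted p = 0.476), and fell with total counts (-0.53, edgeR adjusted p = 9.09e-05).

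Genes of survival and death mostly fell, on both sides of the balance. Of 24 tested Bcl2 family members and caspases 18 fell and 4 rose (median -0.95). Among the protective ones Bcl2 fell (9.51 and 9.996 CPM at 2.5 µM, against 42.0 and 39.3 in DMSO, log2 fold change -2.06), as did Mcl1 (99.0 and 100.4 CPM at 2.5 µM, against 245 and 246 in DMSO, -1.30). Among those that promote death, Bmf (6.00 and 6.30 CPM at 2.5 µM, against 28.1 and 27.3 in DMSO, -2.18) and Bbc3 (6.72 and 5.38 CPM at 2.5 µM, against 29.8 and 29.4 in DMSO, -2.27) fell, as did Casp1, the inflammatory caspase (-2.72), whereas Bax (115 and 107 CPM at 2.5 µM, against 52.0 and 57.4 in DMSO, 1.02) and its relative Bok (84.3 and 76.3 CPM at 2.5 µM, against 40.0 and 35.7 in DMSO, 1.09) rose. Bmf differed by -5.07 between the doses, with 206 and 205 CPM at 1.25 µM.

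Metallothioneins bind zinc and copper, and the factor MTF1 switches their genes on, with the zinc exporter Slc30a1, when metal is in excess. Mt2 stood at 1026 and 1084 CPM at 2.5 µM, against 10.47 and 16.2 in DMSO (log2 fold change 6.31, SE 0.10, edgeR adjusted p = 4.63e-43). Slc30a1 stood at 154 and 157 CPM at 2.5 µM, against 5.16 and 5.15 in DMSO (4.91), Mt1 at 368 and 381 CPM at 2.5 µM, against 34.9 and 38.6 in DMSO (3.35) and Mtf1 at 173 and 170.4 CPM at 2.5 µM, against 29.6 and 23.5 in DMSO (2.69). For all 4 both treated libraries were above both DMSO libraries. Of 12 tested metal genes 7 rose and 5 fell (median 0.63), and 4 of the 5 that fell were zinc importers of the Slc39 family, led by Slc39a14 (36.4 and 31.4 CPM at 2.5 µM, against 130.2 and 112 in DMSO, -1.83). The other was the vesicle transporter Slc30a4 (90.0 and 97.4 CPM at 2.5 µM, against 279.7 and 293 in DMSO, -1.61). Mt2 stood at 106 and 102 CPM at 1.25 µM, a difference between the doses of 3.34.

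The promoters of Slc30a1, which rose, and Slc30a4, which fell, are shown for the core of the metal response element, TGCACNC or TGCGCNC on either strand, in capitals. They lie at chr1:191906531-191906830 on the plus strand for Slc30a1 and chr2:122702614-122702913 on the minus strand for Slc30a4, in GRCm38.p6 from RefSeq.
Slc30a1: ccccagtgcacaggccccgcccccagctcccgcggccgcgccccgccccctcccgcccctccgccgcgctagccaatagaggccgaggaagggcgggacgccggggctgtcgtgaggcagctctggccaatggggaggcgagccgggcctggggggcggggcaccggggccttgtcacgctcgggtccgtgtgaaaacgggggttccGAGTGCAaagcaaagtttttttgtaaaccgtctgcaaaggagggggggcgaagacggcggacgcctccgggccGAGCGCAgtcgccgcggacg
Slc30a4: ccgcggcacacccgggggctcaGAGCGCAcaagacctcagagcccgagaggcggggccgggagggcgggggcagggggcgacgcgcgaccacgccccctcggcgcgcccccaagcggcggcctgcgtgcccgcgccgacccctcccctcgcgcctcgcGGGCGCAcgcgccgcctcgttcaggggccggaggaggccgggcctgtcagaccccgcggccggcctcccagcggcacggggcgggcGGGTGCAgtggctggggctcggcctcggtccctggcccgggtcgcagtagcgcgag
Slc30a1 held 2 matches, Slc30a4 held 3, Mt2 held 4 and Mt1 held 3. The core is short, and 25.7% of all promoters held a match and 7.11% at least 2. Promoters were found for 12 of the 16 listed metal genes, and 69.2% of these 13 promoters held one.

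Sterol synthesis rose. The factor SREBP2, freed from the membrane when sterol is low, switches on the enzymes that make cholesterol. Of 26 tested genes 18 rose and 5 fell (median log2 fold change 1.24). The demethylase Msmo1 stood at 2442 and 2133 CPM at 2.5 µM, against 198 and 215 in DMSO (3.47, SE 0.07, edgeR adjusted p = 2.41e-38). Squalene synthase Fdft1 (1097 and 1007 CPM at 2.5 µM, against 103 and 101 in DMSO, 3.36) and Hsd17b7, a reductase of the late pathway (200.2 and 197 CPM at 2.5 µM, against 19.9 and 23.9 in DMSO, 3.19), rose as well. Insig1, a feedback inhibitor that SREBP2 also induces, fell (133 and 108 CPM at 2.5 µM, against 439.9 and 441 in DMSO, -1.86), as did Dhcr7, a late enzyme (32.0 and 24.6 CPM at 2.5 µM, against 58.2 and 59.1 in DMSO, -1.04). At 1.25 µM 21 of the 26 rose, where 2951 of all 13437 tested genes did, with a median of 0.63, and 16 were higher at 2.5 µM than at 1.25 µM.

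Fatty acid synthesis had 9 of 16 tested genes higher and 5 lower (median 0.46). With total counts 7 were higher and 7 lower (median 0.02). Aacs, which makes acetoacetyl-CoA, rose (781 and 699.6 CPM at 2.5 µM, against 76.0 and 77.0 in DMSO, 3.27), as did the desaturase Scd2 (6295 and 5575 CPM at 2.5 µM, against 1833 and 1803 in DMSO, 1.71). Fads1, another desaturase, fell (51.7 and 47.0 CPM at 2.5 µM, against 139 and 137 in DMSO, -1.48), and Fasn, fatty acid synthase, stood at 661 and 625 CPM at 2.5 µM, against 642 and 604 in DMSO (0.05, edgeR adjusted p = 0.492).

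Of 19 tested genes of glycolysis 13 rose and 4 fell (median log2 fold change 0.63). With total counts 10 rose and 6 fell (median 0.19). The 21 listed genes summed to 27175 and 25786 CPM in the 2.5 µM libraries, against 10782 and 10803 CPM in DMSO. Pgam1, phosphoglycerate mutase, stood at 1523 and 1472 CPM at 2.5 µM, against 182 and 175 in DMSO (3.07) and Ldha, lactate dehydrogenase, at 3199.7 and 2964 CPM at 2.5 µM, against 693 and 708 in DMSO (2.14). Both have processed pseudogenes, so their counts are uncertain. Pfkm and Aldoc, muscle and brain forms of glycolytic enzymes, fell (14.5 and 15.96 CPM at 2.5 µM, against 42.1 and 42.2 in DMSO, -1.47, and 23.5 and 25.3 CPM at 2.5 µM, against 59.3 and 62.8 in DMSO, -1.33). At 1.25 µM 15 of the 19 fell, and between the doses 15 were higher at 2.5 µM.

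In the circadian clock ARNTL and CLOCK switch on the repressors PER and CRY and the receptor gene Nr1d1, whose product in turn represses Arntl. Arntl fell (1.21 and 1.51 CPM at 2.5 µM, against 25.2 and 27.7 in DMSO, log2 fold change -4.29, edgeR adjusted p = 3.59e-21) and Clock stood at 90.6 and 94.5 CPM at 2.5 µM, against 80.8 and 84.4 in DMSO (0.16, edgeR adjusted p = 0.0736). Per2 stood at 110.5 and 104 CPM at 2.5 µM, against 4.68 and 5.36 in DMSO (4.42) and Nr1d1 at 171 and 149 CPM at 2.5 µM, against 13.1 and 11.5 in DMSO (3.70). The output factor Tef (338 and 311 CPM at 2.5 µM, against 39.7 and 39.4 in DMSO, 3.04) and the repressor Ciart (105 and 92.0 CPM at 2.5 µM, against 13.0 and 12.8 in DMSO, 2.93) rose. Of 20 tested clock genes 10 rose and 8 fell (median 0.58, but 0.14 with total counts, 0.11 with no filter and 0.23 with all 12 libraries). Per2 stood at 2.35 and 1.22 CPM at 1.25 µM, a difference between the doses of 6.05.

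Targets of ERK signalling fell. When ERK is active it induces its own brakes, the DUSP phosphatases and Sprouty proteins, and the ETV factors. Of 25 tested genes 20 fell and 3 rose (median log2 fold change -1.70). Dusp6, the ERK phosphatase, stood at 9.997 and 10.9 CPM at 2.5 µM, against 218 and 222 in DMSO (-4.40, SE 0.10, edgeR adjusted p = 5.07e-36). Etv1 (8.30 and 8.99 CPM at 2.5 µM, against 127 and 136 in DMSO, -3.94), Etv5 (6.91 and 5.88 CPM at 2.5 µM, against 68.6 and 57.5 in DMSO, -3.29) and Myc (36.9 and 44.2 CPM at 2.5 µM, against 247 and 242 in DMSO, -2.60) fell too. Dusp1, a stress-induced relative, rose (25.2 and 24.6 CPM at 2.5 µM, against 10.47 and 10.46 in DMSO, 1.25), as did Dusp7 (144 and 131 CPM at 2.5 µM, against 105 and 97.5 in DMSO, 0.44) and Ier3, an early-response gene (223 and 309.9 CPM at 2.5 µM, against 213 and 224 in DMSO, 0.28), although the Ier3 libraries of the groups overlapped. At 1.25 µM 21 of the 25 fell (median -1.43), and between the doses 10 were higher and 9 lower at 2.5 µM. Etv4 was higher at 2.5 µM than at 1.25 µM (36.2 and 40.7 CPM at 2.5 µM, against 86.9 and 80.1 in DMSO, with 3.66 and 2.81 CPM at 1.25 µM).

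Amino acid genes, many of them targets of the stress factor ATF4, mostly fell, 18 of 27 with 7 higher (median -0.92). Atf4 itself fell (121 and 119 CPM at 2.5 µM, against 347 and 329 in DMSO, log2 fold change -1.497), with Trib3 (2.79 and 4.03 CPM at 2.5 µM, against 117 and 119 in DMSO), Slc7a11 (2.30 and 2.44 CPM at 2.5 µM, against 57.9 and 50.6 in DMSO), Ddit3, a death-promoting factor (10.4 and 11.3 CPM at 2.5 µM, against 73.9 and 83.7 in DMSO, -2.87), and Asns, asparagine synthetase (129 and 109 CPM at 2.5 µM, against 363 and 348 in DMSO, -1.57). Among the 7 that rose were Phgdh, an enzyme of serine synthesis (716 and 664 CPM at 2.5 µM, against 336 and 327 in DMSO, 1.06) and Mthfd1, a folate enzyme (237 and 223 CPM at 2.5 µM, against 73.6 and 65.2 in DMSO, 1.73). Aldh1l2, a folate enzyme of mitochondria, had 0 and 0.0840 CPM at 2.5 µM, against 2.58 and 1.96 in DMSO. Psat1, another serine synthesis enzyme, rose (636 and 573 CPM at 2.5 µM, against 449 and 440.4 in DMSO, 0.44). At 1.25 µM 25 of the 27 fell and 0 rose.

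Other signalling lists were mixed. Of 17 tested Wnt genes 7 rose and 5 fell (median 0.14, but 4 and 8 with a median of -0.30 with total counts), with the receptor Lgr4 higher (42.3 and 47.0 CPM at 2.5 µM, against 17.4 and 16.8 in DMSO, 1.38) and the receptor Fzd2 lower (6.60 and 6.05 CPM at 2.5 µM, against 22.9 and 25.3 in DMSO, -1.92). TGF-beta and BMP genes had 7 of 22 higher and 9 lower (median -0.33), or 4 and 14 with total counts, with Id3, a target and blocker of differentiation factors, higher (64.9 and 66.9 CPM at 2.5 µM, against 18.9 and 19.9 in DMSO, 1.77) and the signal transducer Smad3 lower (56.3 and 52.4 CPM at 2.5 µM, against 188 and 189 in DMSO, -1.79). In the Notch pathway 5 of 16 rose and 9 fell (median -0.81), with total counts 3 and 9. Hes1, the best known Notch target, fell (4.12 and 4.03 CPM at 2.5 µM, against 23.2 and 24.1 in DMSO, -2.53), as did the DNA-binding partner Rbpj (96.1 and 98.9 CPM at 2.5 µM, against 226 and 235 in DMSO, -1.24).

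**Figure D4:**
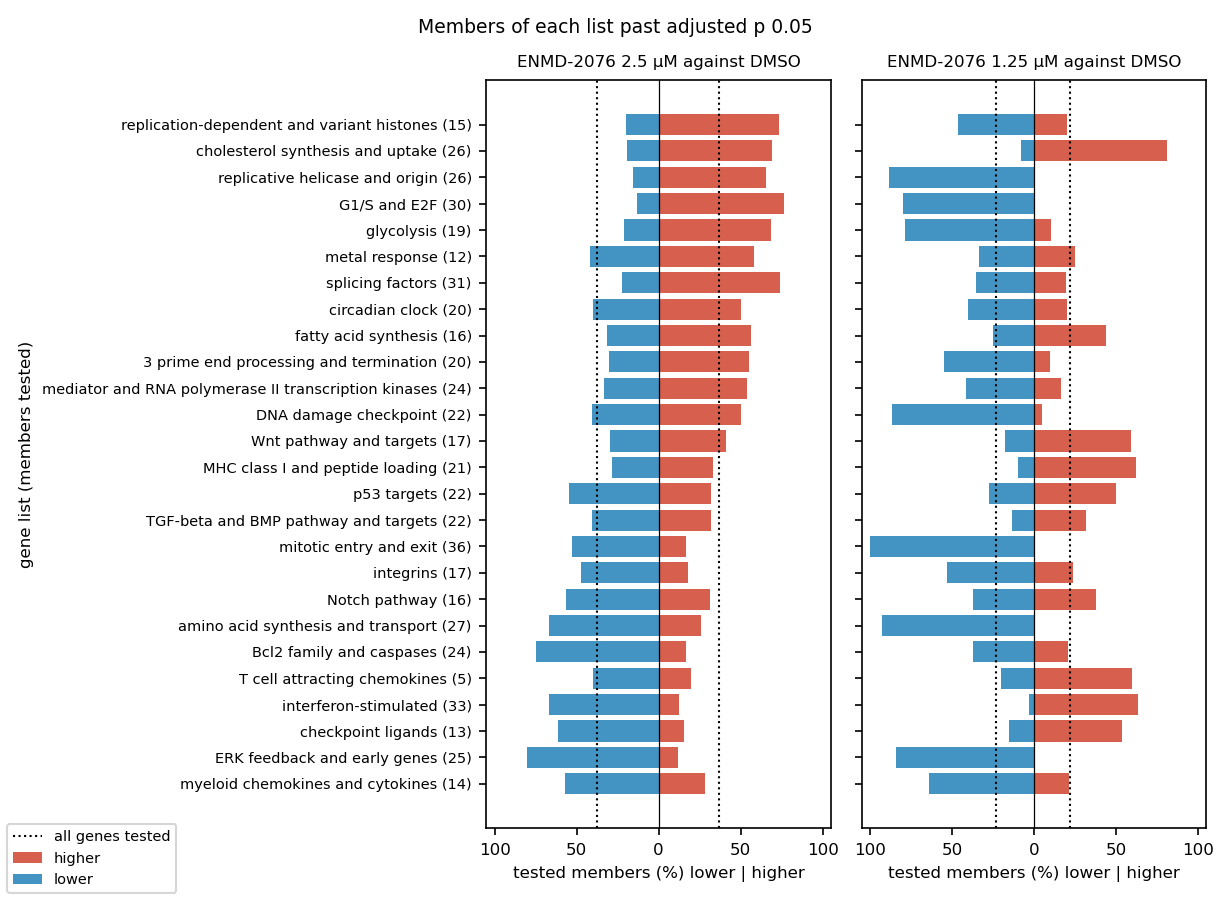
Percent of the tested members of each list that were lower (left, blue) and higher (right, red) past an adjusted p of 0.05, for 2.5 µM and for 1.25 µM ENMD-2076 against the same DMSO libraries, with dotted lines at the share of all genes tested. Lists are ordered by their median at 2.5 µM. At 2.5 µM 18 of 26 sterol genes were higher and 20 of 25 ERK genes lower, and at 1.25 µM 21 and 21.

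Interferon-stimulated genes were mostly lower at 2.5 µM, where 22 of 33 fell and 4 rose (median -1.01). Parp14, a mono-ADP-ribosyltransferase, stood at 9.997 and 9.24 CPM at 2.5 µM, against 36.8 and 32.9 in DMSO (log2 fold change -1.85) and the RNA sensor Ifih1 at 5.27 and 3.86 CPM at 2.5 µM, against 20.6 and 20.8 in DMSO (-2.15). Irf7, a factor that induces interferon, rose (13.7 and 13.6 CPM at 2.5 µM, against 5.07 and 4.30 in DMSO, 1.54), as did Gbp2, an interferon-induced GTPase (19.3 and 15.8 CPM at 2.5 µM, against 7.50 and 5.47 in DMSO, 1.44). At 1.25 µM 21 of the 33 rose and 1 fell, and 28 were lower at 2.5 µM than at 1.25 µM, where 38.3% of all tested genes were.

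Of 21 tested genes of class I antigen presentation 7 rose and 6 fell (median -0.10), whereas with total counts 4 rose and 11 fell (median -0.54). Calr, the peptide-loading chaperone calreticulin, rose (865 and 881 CPM at 2.5 µM, against 203 and 225 in DMSO, 2.03), as did Pdia3, a partner chaperone (824 and 814 CPM at 2.5 µM, against 289.9 and 288 in DMSO, 1.504) and B2m, the class I light chain (703 and 657 CPM at 2.5 µM, against 395 and 427 in DMSO, 0.73). H2-T23, a non-classical class I molecule, fell (7.15 and 7.98 CPM at 2.5 µM, against 59.7 and 62.1 in DMSO, -3.02), with Nlrc5, the class I transactivator (6.36 and 3.86 CPM at 2.5 µM, against 49.2 and 43.2 in DMSO, -3.14), and the peptide transporter Tap1 (4.06 and 5.12 CPM at 2.5 µM, against 13.2 and 18.2 in DMSO, -1.78). H2-K1, a classical class I gene, stood at 51.7 and 53.2 CPM at 2.5 µM, against 49.4 and 46.0 in DMSO (0.13, edgeR adjusted p = 0.23). Class I genes are near-identical copies of each other, so their counts are uncertain.

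Checkpoint ligands fell in 8 of 13 cases and rose in 2 (median -1.42, but -0.67 in a fit of the 4 libraries alone and -0.74 with all 12 libraries). Cd274, which encodes PD-L1, stood at 4.97 and 4.45 CPM at 2.5 µM, against 1.80 and 1.49 in DMSO (1.52, SE 0.42, edgeR adjusted p = 0.00119) and Nectin4, an adhesion molecule that binds TIGIT, at 22.3 and 25.5 CPM at 2.5 µM, against 1.70 and 2.02 in DMSO (3.68). Cd47, the signal against phagocytosis, stood at 47.6 and 50.6 CPM at 2.5 µM, against 179 and 175 in DMSO (-1.85), and Vsir, which encodes VISTA, at 0.364 and 1.596 CPM at 2.5 µM, against 11.5 and 11.7 in DMSO (-3.69).

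Among 14 tested myeloid chemokines and cytokines 8 fell and 4 rose (median -2.02, but -0.57 with no filter and -0.54 with all 12 libraries), and with total counts 10 fell and 3 rose. Tslp, an epithelial alarm cytokine, stood at 13.5 and 13.2 CPM at 2.5 µM, against 177 and 193 in DMSO (-3.79), Csf3, the granulocyte growth factor, at 11.7 and 14.4 CPM at 2.5 µM, against 90.8 and 86.6 in DMSO (-2.78), and Cxcl3, which draws neutrophils, at 13.9 and 14.8 CPM at 2.5 µM, against 1.32 and 1.75 in DMSO (3.23). Chemokines that draw T cells were tested for 5 genes. Cxcl16 (13.6 and 9.996 CPM at 2.5 µM, against 58.5 and 54.1 in DMSO, -2.24) and Cx3cl1 (8.30 and 11.7 CPM at 2.5 µM, against 46.4 and 40.9 in DMSO, -2.15) fell, while Ccl5 stood at 1.94 and 0.252 CPM at 2.5 µM, against 1.80 and 0.690 in DMSO (-0.11, edgeR adjusted p = 0.875). Without 2.5 µM replicate 1, Ccl5 was -2.36 (edgeR adjusted p = 0.0149). Cxcl10 had 0.848 and 0.840 CPM at 2.5 µM, against 0 and 0.0531 in DMSO, with 1 read in DMSO, and passed the test, though without DMSO replicate 1 its edgeR adjusted p was 0.0523.

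Of 24 tested kinases of RNA polymerase II, with their partners and Mediator, 13 rose and 8 fell (median log2 fold change 0.35), with total counts 9 and 10. Cdk9 and its cyclin Ccnt1 form P-TEFb, which releases paused polymerase. Ccnt1 stood at 378 and 366 CPM at 2.5 µM, against 63.4 and 61.7 in DMSO (2.57) and Cdk9 at 224 and 231 CPM at 2.5 µM, against 67.8 and 67.9 in DMSO (1.74). Hexim1, an inhibitor of P-TEFb, fell (29.7 and 24.7 CPM at 2.5 µM, against 35.6 and 39.1 in DMSO, -0.45) and so did Med12 of the Mediator kinase module (20.4 and 19.7 CPM at 2.5 µM, against 79.2 and 75.4 in DMSO, -1.94).

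Factors of 3′ end cleavage and termination had 11 of 20 higher and 6 lower (median 0.35), with Pcf11, a termination factor, at 194 and 198 CPM at 2.5 µM, against 71.8 and 78.0 in DMSO (1.39) and Cstf1, a cleavage stimulation subunit, at 150.1 and 149.9 CPM at 2.5 µM, against 45.9 and 48.5 in DMSO (1.67). With total counts 6 of these were higher and 8 lower, and the medians of both lists were -0.09. Of 31 splicing factors 23 rose and 7 fell (median 0.63), and with total counts 16 rose and 13 fell (median 0.19). Rises included Srsf11 (989 and 957 CPM at 2.5 µM, against 235 and 243 in DMSO, 2.02) and Rbm39 (1163 and 1156 CPM at 2.5 µM, against 328 and 300.3 in DMSO, 1.88).

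Of 15 tested histone genes 11 rose and 3 fell (median 1.31, or 0.87 with total counts and 2.49 with no filter). H1f0, the linker histone of resting cells, fell (138 and 138 CPM at 2.5 µM, against 1649 and 1786 in DMSO, log2 fold change -3.63, edgeR adjusted p = 9.32e-39), as did the replacement histone H3f3b (227 and 229 CPM at 2.5 µM, against 680.1 and 682 in DMSO, -1.58). The variant H2afz rose (507 and 492 CPM at 2.5 µM, against 263 and 273 in DMSO, 0.90), and so did Hist1h4i, a replication-dependent H4 gene (24.2 and 20.7 CPM at 2.5 µM, against 3.26 and 2.34 in DMSO, 2.999). Replication-dependent histone genes are near-identical copies and their messages lack the usual tail, so their counts are uncertain.

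Small nuclear and small nucleolar RNAs stood higher in the treated pair, while the tested genes of the microRNA and miscellaneous classes were split. Of 17 tested microRNA genes 4 rose and 4 fell (median log2 fold change -0.78). Of 14 genes of the miscellaneous RNA class 5 rose and 2 fell (median 0.06). Over all genes tested 37.1% rose and 37.4% fell. The reads of annotated small nuclear RNAs, which build the spliceosome, summed to 240 and 210 CPM in the 2.5 µM libraries, against 15.1 and 14.0 CPM in DMSO, with 11.3 and 16.1 CPM at 1.25 µM. Small nucleolar RNAs, which guide the modification of ribosomal RNA and mostly lie in introns, summed to 503 and 491 CPM, against 111 and 106 CPM in DMSO. By the same kind of sum the miscellaneous class was also higher, with 48.3 and 45.4 CPM at 2.5 µM, against 11.3 and 10.4 in DMSO. Small Cajal body RNAs summed to 8.60 and 9.07 CPM at 2.5 µM, against 2.97 and 2.28 in DMSO. Processed pseudogenes took 0.771 and 0.769% of reads in the 2.5 µM libraries, against 0.538 and 0.541% in DMSO. Mitochondrially encoded genes had a median log2 fold change of 1.54, and all 16 tested were higher, as were 15 of them at 1.25 µM. Many of these RNAs have near-identical copies, and how reads with several alignments were counted is not given in the sources used here.

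Some protein-coding genes silent in DMSO gained reads, and their place beside other genes was examined. A gene counted as silent with at most 3 reads in DMSO 1 and 2 together. At 20 CPM or more in both treated libraries there were 6 such genes, those named above, and 0 the other way round. At 5 CPM or more there were 59, of which 42 were protein-coding, and 2 were lost. At 1.25 µM these counts were 0 and 0 at 20 CPM, and 1 and 1 at 5 CPM. Among them were genes of other cell types, such as Neurog2, a neural factor (9.03 and 10.2 CPM at 2.5 µM, against 0 and 0 in DMSO), Flt4, a receptor of lymphatic endothelium (7.03 and 10.7 CPM at 2.5 µM, against 0 and 0 in DMSO), Cd79a of the B cell receptor (6.48 and 6.47 CPM at 2.5 µM, against 0.0487 and 0 in DMSO) and the muscle actin gene Acta1 (8.24 and 6.89 CPM at 2.5 µM, against 0.0487 and 0 in DMSO). Flt4 also stood at 6.51 and 7.34 CPM in DMSO 3 and 4, and Gm5577, another of the 59, at 6.69 and 6.86 CPM there. AA986860, one of the largest rises above, stood at 23.54 and 24.97 CPM in DMSO 3 and 4. Levels in DMSO 3 and 4, which stand apart from the libraries in the fit, are per total reads.

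The marker lists of these cell types were also summed whole. Each sum follows its most abundant genes and can hide rises of scarce ones. The 20 endothelial genes summed to 62.5 and 67.8 CPM at 2.5 µM, against 79.6 and 76.3 in DMSO, with no read of Cdh5 or Emcn, which define vessel lining, in the 4 libraries. Most of the endothelial sum in DMSO was Eng and Flt1, which both fell. Eng stood at 22.8 and 21.1 CPM at 2.5 µM, against 41.6 and 39.8 in DMSO. Flt1 stood at 18.9 and 16.7 CPM at 2.5 µM, against 31.1 and 31.4 in DMSO. Flt4 and Esam, by contrast, rose from near 0. Esam, an endothelial adhesion molecule, stood at 2.79 and 3.53 CPM at 2.5 µM, against 0.0974 and 0.159 in DMSO. The 20 muscle genes summed to 76.7 and 70.9 CPM at 2.5 µM, against 95.6 and 100.1 in DMSO, with no read of the muscle regulators Myod1 and Myog. The 24 neural genes summed to 213.5 and 197 CPM at 2.5 µM, against 163 and 156 in DMSO, with no read of the neuronal genes Stmn2 and Neurod1, while Gfap, a filament of astrocytes, stood at 3.03 and 4.20 CPM at 2.5 µM, against 0.0487 and 0.0531 in DMSO. The 23 gut and liver genes summed to 41.9 and 45.7 CPM at 2.5 µM, against 18.997 and 13.6 in DMSO, with no read of Hnf4a or Cdx2 in these 4 libraries, while Cdh17, an intestinal cadherin, stood at 14.2 and 11.3 CPM at 2.5 µM, against 2.63 and 1.43 in DMSO. Ptprc and Cd3e of blood cells and Trp63 of basal cells were at or near 0. The part of other cells in these reads was not tested.

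Il17f (chr1:20777146-20790617, minus strand, mm10) starts 12.4 kb behind the 3′ end of Mcm3 on the same strand, and Mcm3 itself rose by 3.08. Ampd1 (chr3:103074014-103099720, plus strand) starts 6.10 kb behind Nras, whose own log2 fold change was 0.03. Rasl11a (chr5:146845071-146847726, plus strand) starts 8.04 kb behind Rpl21 (0.92), and Cmya5 (chr13:93040713-93144724, minus strand) 1.56 kb behind Tent2 (0.13). Mcmdc2 (chr1:9908638-9942085, plus strand) starts 7.79 kb behind Sgk3 (-0.16), and the end of Mcmdc2 overlaps that of Snhg6 on the other strand. Taf9b (chrX:106206883-106221158, minus strand) ends 3.18 kb from the end of Pgk1, which faces it. A neighbour counted as expressed with a mean of at least 5 CPM in DMSO 1 and 2, and no other cutoff was run. Of the 42 genes, 19 (45.2%) had an expressed gene ending within 10 kb upstream on the same strand and 14 (33.3%) one ending within 10 kb from the other side. Of all 8677 silent protein-coding genes 5.28% and 8.69% had such neighbours. An expressed gene starting within 10 kb downstream stood beside 5 (11.9%), against 5.58% of all silent ones. These counts include neighbours that overlap the gene itself, such as Zfp91 for Cntf.

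The share of silent protein-coding genes that reached 1 CPM in both 2.5 µM libraries was highest within 10 kb behind an expressed gene. Genes that overlap an expressed gene on the same strand were counted in the nearest bin. The share was 16.1% of 273 genes within 5 kb behind an expressed gene, 16.8% of 185 at 5 to 10 kb, 8.84% of 294 at 10 to 20 kb, 5.23% of 612 at 20 to 50 kb, 3.08% of 747 at 50 to 100 kb, and 0.871% of 6312 farther away. At 1.25 µM 0.196% of all 8677 reached that level. The sources used here do not give the strand counted, and reads of neighbouring or overlapping genes cannot be told apart from reads of the gene itself.

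Long genes were lower in the treated pair. Among tested protein-coding genes ordered by length from start to end, the shortest 10%, up to 4.76 kb, had a median log2 fold change of 0.13, with 42.0% higher and 31.7% lower. The longest 10%, from 115 kb upward, had a median of -0.64, with 20.2% higher and 57.5% lower. At 1.25 µM the same shortest and longest genes had medians of 0.01 and 0.04. Genes with 16 or more exons had a median of -0.31 at 2.5 µM, those with 2 to 5 exons 0.17, and those with a single exon 0.08.

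**Figure D5:**
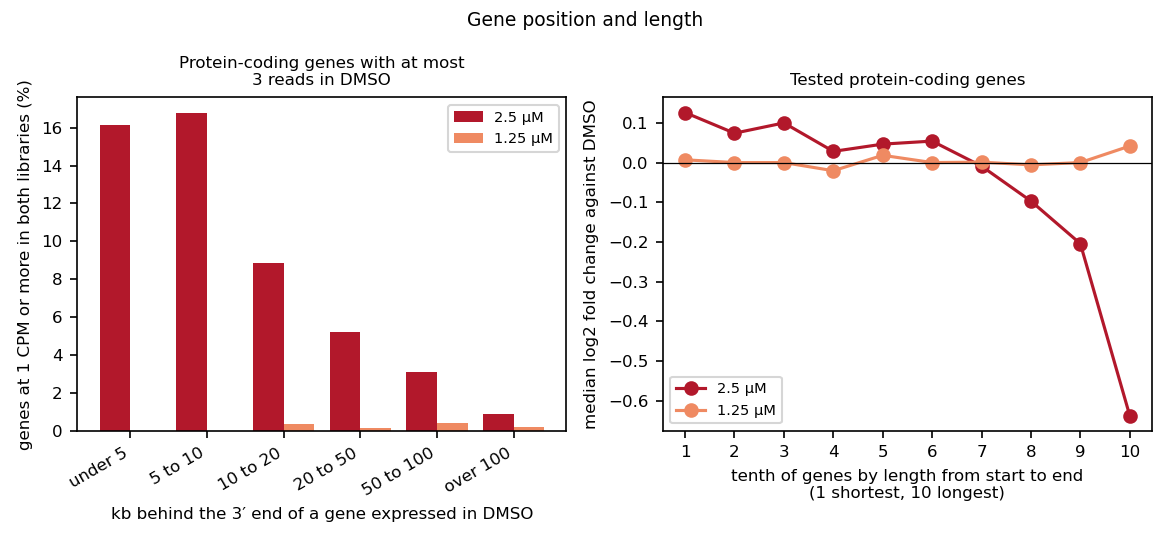
Left, percent of protein-coding genes silent in DMSO that reached 1 CPM in both libraries, by distance behind the 3′ end of an expressed gene, for 2.5 and 1.25 µM. The bin under 5 kb includes genes that overlap an expressed gene. Right, median log2 fold change against DMSO by gene length in 10 equal groups. At 2.5 µM the share was 16.1% under 5 kb, 16.8% at 5 to 10 kb and 0.871% over 100 kb, and the longest genes had a median of -0.64.

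Median fold changes by chromosome covered a narrow range beside those of single genes. Medians of nuclear chromosomes ran from -0.21 on chromosome 12 to 0.24 on chromosome 16. In consecutive windows of 100 tested genes the medians ran from -0.44 to 0.49 (SD 0.203 over 122 windows), and from -0.17 to 0.20 (SD 0.0799) at 1.25 µM.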

How the data were processed

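For every library the authors deposited a table of unnormalized counts, a whole number for each gene. Per the labels' protocols total RNA was extracted with TRIzol, made into libraries with the NEBNext Ultra RNA kit and sequenced on an Illumina HiSeq. The submitters' processing notes list DESeq2, HTSeq, TopHat, Bowtie and FastQC 0.11.3, with builds mm10 and hg38, and give no role or order. The sources used here give neither the strand setting nor the handling of reads with several alignments. Of 38924 gene IDs 37607 matched the GENCODE vM21 name table.

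The 6 libraries (2.5 µM, 1.25 µM and DMSO 1 and 2) were fitted together with edgeR 4.0.16 in R 4.3.3: genes kept by filterByExpr, TMM scaling, the quasi-likelihood test, and Benjamini-Hochberg adjustment over all genes tested, with calls at 0.05. CPM values are TMM-scaled for these libraries and per total count for DMSO 3 and 4. SE is the fold change divided by the root of F. Depth was 14418492 to 30866819 reads, and precision is limited by 2 libraries a group. On simulated counts for 2.5 µM against DMSO, the fit (12386 genes) recovered 160 of the 200 changed genes, of which 191 were tested, with 7 false calls among 167. The simulation kept all other genes at DMSO levels. It therefore does not cover data in which 74.5% of genes were called. Alternatives were total counts, RLE size factors, DESeq2 1.42.0, no filter, other sets of libraries, a replicate block, and each library left out.

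The comparison and all gene lists were chosen with earlier results of these data known, and 13 lists were added after values were seen. The genes named by rule were the 12 largest rises and falls past the threshold, the extremes of each list and a few fixed genes. The rises and falls were limited to genes with a mean of at least 20 CPM in the higher group. Numbered gene models (Gm, Rik) were left out of them. Other members were named after their values were seen, and results for some genes are not reported here. Promoters and motif shares come from RefSeq, and a match on either strand was counted.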

Additional observations from a re-analysis of the deposited data

How the results depend on the processing

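Of 10012 genes called at 2.5 µM, total counts gave 10259, RLE size factors 9995, DESeq2 9458, no filter 10132, the 4 libraries alone 10012, all 12 libraries labelled 4T1 10816, and leaving out 1 library 9259 to 10366. Total counts turned the direction of 166 calls. The replicate numbers do not pair the libraries (correlations of deviations -0.0196, 0.0480 and -0.0141), and with the replicate block 9831 genes were called. The count of silent genes gained, 6 at 20 CPM, was 2 with no DMSO read allowed, 2 at 50 CPM, 59 at 5 CPM and 298 at 1 CPM, a level added after seeing the data, and genes lost, 0 at 20 CPM, were 2 at 5 CPM and 50 at 1 CPM. The range of window medians was 1.86 with 50 genes a window and 0.93 with 100. With total counts list medians turned negative for haematopoietic genes (-0.13), Hox genes (-0.29), the DNA damage checkpoint (-0.11), Wnt (-0.30), polymerase II kinases (-0.091) and 3′ end processing (-0.090). Without ENMD 2.5 µM replicate 1 the haematopoietic median was -0.035 and the Hox median -0.0068. The Hox median was -0.093 with no filter and -0.0014 without DMSO replicate 1. Over the libraries left out in turn, the haematopoietic median ran from -0.035 to 1.11 and the Hox median from -0.0068 to 0.16. Aurka (-0.35), Impact (-0.051) and Stat5b (-0.25) also turned negative with total counts. The cause of these changes was not tested. Of 2593 values for 186 named genes, 2525 kept direction and side of the threshold, 44 lost the threshold, 21 gained it and 3 turned. With 2 libraries a group and rare genes near 3 reads, small differences in low genes were not detectable at this depth.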
